A study of Mus musculus with 1 sample.

Results

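*Kit* and *Kitl*, the genes of a receptor and its ligand, were followed through the cell types of the PD8 mouse testis. They were taken by symbol from the gene list of a single-cell library and are 2 of its 27998 genes. *Kit* had 218 unique molecular identifiers (UMIs, each counting 1 captured transcript molecule) over all barcodes, and *Kitl* had 577. Both genes were therefore sparse, and no cell held more than 7 *Kit* UMIs or 10 *Kitl* UMIs.

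The study asked which factors govern spermatogonial regeneration and used scRNA-seq to profile spermatogonia with and without *Zscan2*. The library described here came from 3 wild-type (*Zscan2+/+*) C57BL/6 mice at postnatal day 8 (PD8), whose cells were mixed in equal numbers. Spermatogonia were enriched with THY1+ MACS beads, and some unselected testis cells were added back, so that the mixing set the proportions of cell types. No mouse can be told from another, and with 1 library no p-value can be made. The library from *Zscan2−/−* mice was not analysed here.

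KIT is a receptor tyrosine kinase on the surface of spermatogonia that have begun to differentiate. Its ligand, KITL or stem cell factor, is made by the neighbouring somatic cells and is needed for differentiating spermatogonia to survive and divide. In the testis KIT is also known from Leydig cells, and outside it from melanocytes, mast cells and blood progenitors. Binding of the ligand brings receptors together and engages PI3 kinase, RAS and SRC family signalling.

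In GRCm38, *Kit* (ENSMUSG00000005672) occupies positions 75574916 to 75656722 of chromosome 5, on the plus strand. GENCODE gives it 8 transcripts, of which 2 are protein coding with 21 exons each and coding sequences of 2937 and 2925 bp. *Kitl* (ENSMUSG00000019966) occupies positions 100015630 to 100100416 of chromosome 10, also on the plus strand, and has 6 transcripts, of which 4 are protein coding. No other annotated gene overlaps either of them.

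Both genes make alternative proteins, and the sequences that set these apart are shown because the counts of this library cannot separate them. In each line the capitals mark the bases that one coding transcript holds and the other lacks, and the 20 bases on either side are in lower case. For *Kit* they are the last 12 bases of exon 9 of Kit-201, at chr5:75639147-75639158, which Kit-204 lacks. For *Kitl* they are the whole of exon 6 of Kitl-202, 84 bases at chr10:100080857-100080940, which Kitl-201 lacks. This exon is known to encode the site at which the ligand is cut from the membrane, so that the transcript with it gives soluble ligand and the shorter one a form that mostly stays on the cell.
Kit-201: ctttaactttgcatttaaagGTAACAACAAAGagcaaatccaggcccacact
Kitl-202: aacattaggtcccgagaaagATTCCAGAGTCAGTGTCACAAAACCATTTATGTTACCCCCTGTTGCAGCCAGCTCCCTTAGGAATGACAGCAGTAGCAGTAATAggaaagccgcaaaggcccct
The *Kit* segment ends 3568 bases before the 3′ end of its transcript and the *Kitl* exon ends 4653 bases before that of its own. The chemistry reads near the 3′ end, and every value that follows is for all transcripts of a gene together.

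The library held 970 barcodes and 11358045 UMIs, with 2655 to 44915 UMIs per barcode and a median of 9115. After filtering, 920 cells remained, of which 324 fell in clusters of germ cells and 596 in somatic clusters. *Kit* and *Kitl* were kept out of the genes used for clustering and out of the marker lists, so neither helped to make the groups. By their markers 112 of the germ cells were SSC-like, 79 were progenitor-like and the other 133 were differentiating-like. Of the somatic cells 255 were Sertoli-like, 186 stromal-like and 94 peritubular myoid-like, beside 26 T cell-like and 35 macrophage-like cells. The summed level of the germ cell markers was 1237 to 1515 CPM (UMIs per 1000000 UMIs of the group) in the 3 germ cell classes and 21.6 to 72.7 in the somatic classes. The Sertoli cell markers summed to 6363 CPM in the Sertoli-like cells and to 42.6 to 163 elsewhere.

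*Kit* was found chiefly in germ cells that had entered differentiation. Levels are CPM of the summed UMIs, with 95% Poisson intervals that cover counting error only, as do all intervals given. In the 112 SSC-like cells *Kit* had 21 UMIs and a level of 8.59 CPM (5.32 to 13.1). In the 79 progenitor-like cells it had 6 UMIs and a level of 4.15 CPM (1.52 to 9.03). In the 133 differentiating-like cells it had 144 UMIs and a level of 86.6 CPM (73.0 to 102). Germ cells held 83.8% of the *Kit* UMIs of the kept cells, and the differentiating-like cells held 84.2% of those in germ cells.

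The level in differentiating-like cells was 10.1-fold that in SSC-like cells (interval 6.35 to 16.8) and 20.9-fold that in progenitor-like cells (9.35 to 57.8). Between the SSC-like and progenitor-like cells the ratio was 2.07, and its interval of 0.808 to 6.27 includes no difference. Which of these is higher also depended on the clustering. The order of *Kit* levels was thus differentiating-like above both undifferentiated classes, with the latter not separable. The SSC-like cells were not uniform when clustered at a finer resolution of 1.2. An SSC-like cluster of 61 cells held 17 *Kit* UMIs (12.3 CPM) and another of 45 cells held 4 (3.94 CPM), a ratio of 3.12 (1.02 to 12.7). These clusters were also unlike in stage genes. The differentiation gene *Stra8* stood at 188 CPM in the cluster of 61 cells and 5.91 CPM in that of 45. *Gfra1*, a gene of undifferentiated spermatogonia, stood at 34.7 and 91.6 CPM.

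The same order was seen in the proportion of cells with *Kit*. A *Kit* UMI was found in 46.6% of differentiating-like cells (37.9 to 55.5), 14.3% of SSC-like cells (8.39 to 22.2) and 7.59% of progenitor-like cells (2.84 to 15.8). These cells differed in depth, with median UMIs per cell of 10878, 22293 and 19446, so each cell was also thinned at random to 5000 UMIs and shallower cells were left out (36 differentiating-like, 2 SSC-like and 7 progenitor-like cells). At equal depth *Kit* was found in 32 of 97 differentiating-like cells (33.0%), in 5 of 110 SSC-like cells (4.55%) and in 0 of 72 progenitor-like cells. By 3 counts of the total, the latter allows a share of cells with a *Kit* UMI of up to 4.17% at this depth, and does not limit how many cells express the gene. In Sertoli-like cells, which are not known to make the receptor, 1 of 235 cells (0.426%) held a *Kit* UMI at this depth.

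**Figure D1:**
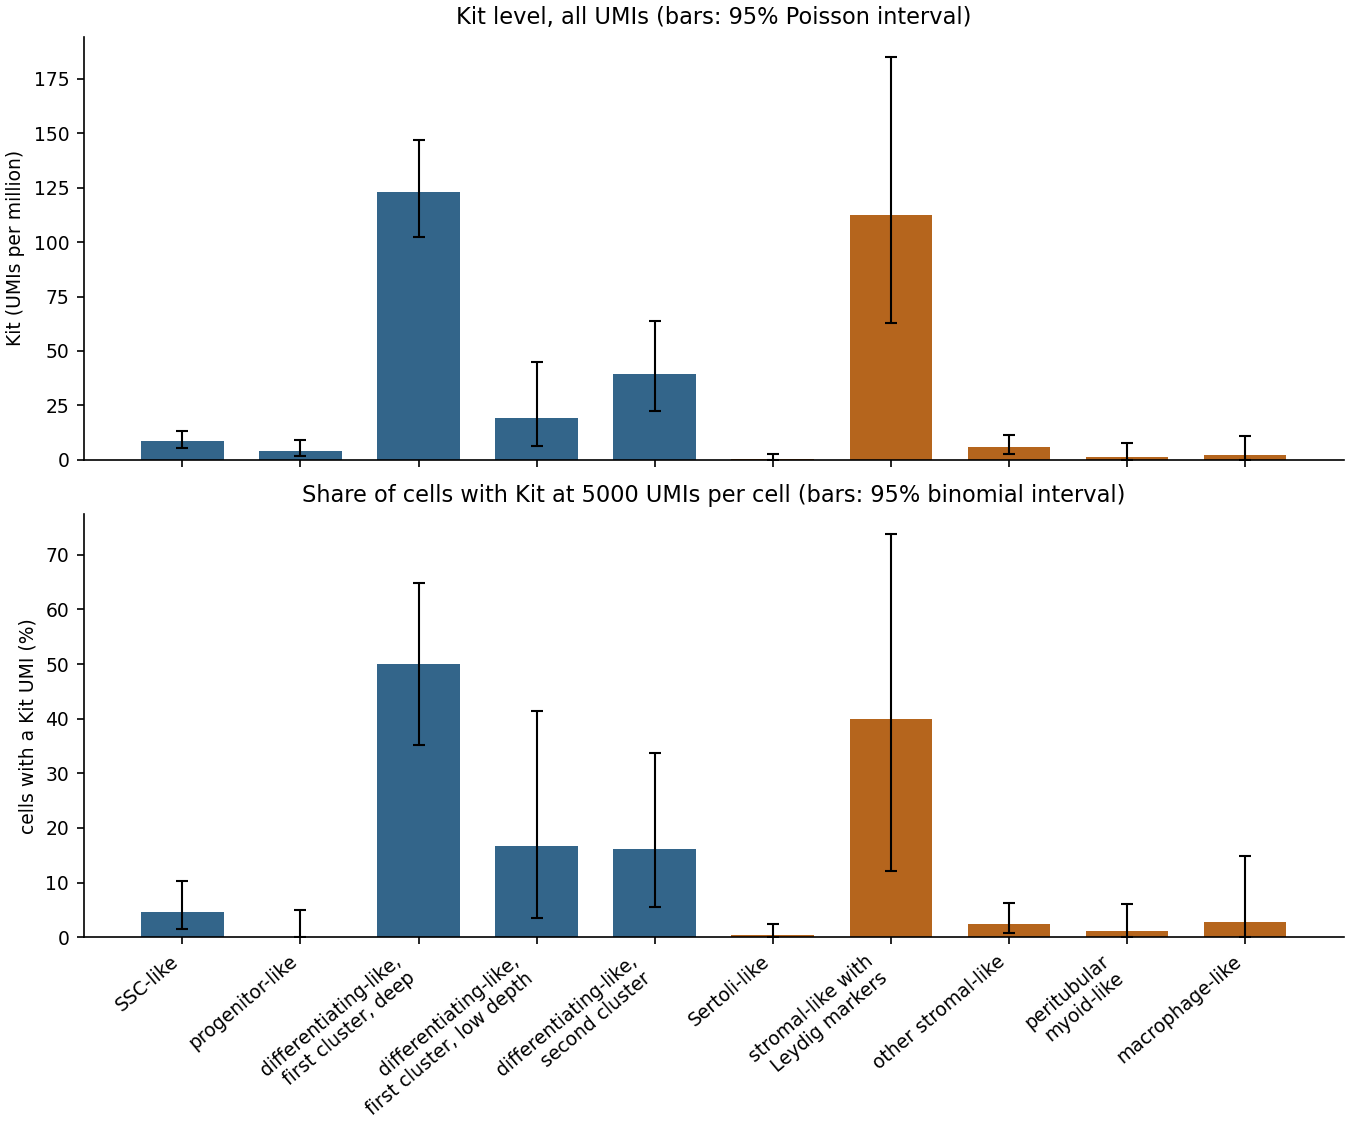
Level of *Kit* (upper plot, CPM) and percentage of cells with a *Kit* UMI after thinning to 5000 UMIs (lower plot) in germ cell groups (blue) and somatic groups (brown), with 95% intervals for counting error. The deep cells of the first differentiating-like cluster (123 CPM) and the 10 stromal-like cells with Leydig cell markers (112 CPM) stand above the other groups.

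Within the differentiating-like class *Kit* was not uniform. The class consisted of a first cluster of 101 cells and a second of 32 cells. The first held 50 cells of usual depth and 51 cells of low depth (median 20269 and 4079 UMIs). When all cells were clustered, the low-depth cells had fallen in the germ cell cluster with the fewest UMIs per cell. Why they grouped apart was not tested. In the 50 deep cells *Kit* had 123 UMIs, a level of 123 CPM (102 to 147), and was found in 44 cells (88.0%). In the 51 low-depth cells it had 5 UMIs, a level of 19.3 CPM (6.26 to 45.0), and was found in 5 cells (9.80%). In the 32 cells of the second cluster it had 16 UMIs, a level of 39.4 CPM (22.5 to 64.0), and was found in 13 cells (40.6%).

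The second cluster was led by *Esx1* and *Prss50*, genes of later spermatogonia and early meiosis, with 519 and 281 CPM against 42.1 and 6.01 CPM in the deep cells of the first. *Kit* in the deep cells was 3.13-fold that in the second cluster (1.85 to 5.64). *Dnmt3b*, a DNA methyltransferase induced as spermatogonia differentiate, differed likewise, with 143 CPM in the deep cells and 34.5 CPM in the second cluster (4.16-fold, 2.40 to 7.79). *Stra8*, the retinoic acid response gene that marks the onset of differentiation, did not, with 838 CPM in the deep cells and 1000 CPM in the second cluster (0.839-fold, 0.744 to 0.947). The cluster with more *Esx1* thus had less *Kit* than the deep cells. Genes of the second cluster were also compared over all germ cells, undifferentiated cells included, by the number of *Kit* UMIs. In germ cells thinned to 5000 UMIs *Esx1* stood at 56.2 CPM (43.6 to 71.2) in the 242 cells without *Kit*, at 100 CPM (56.0 to 165) in the 30 cells with 1 *Kit* UMI and at 229 CPM (98.7 to 450.4) in the 7 cells with 2 or more. In the same sets *Prss50* stood at 48.8 (37.1 to 62.9), 33.3 (10.8 to 77.8) and 28.6 CPM (0.723 to 159). It rested on 59, 5 and 1 UMIs. *Ly6k*, also high in the second cluster (244 CPM), stood at 45.5 (34.2 to 59.2), 20 (4.12 to 58.4) and 0 CPM (0 to 105). It rested on 55, 3 and 0 UMIs. The intervals of *Prss50* and *Ly6k* overlap across the sets, and these UMIs are too few to tell a direction with *Kit*. Those of *Esx1* also overlap between neighbouring sets. These sets pool all germ cell classes and do not compare the deep cells with the second cluster.

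The low-depth cells differed from the deep cells of their cluster in *Kit* and in several other germ cell genes. *Kit* in the deep cells was 6.39-fold that in the low-depth cells (log2 2.68, 1.41 to 4.32), and *Dnmt3b* was 2.32-fold (1.38 to 4.17). *Stra8* was 0.771-fold (0.673 to 0.885), *Dazl*, an RNA-binding protein of germ cells, 0.812-fold (0.711 to 0.930), and *Ddx4*, a germ cell helicase, 1.53-fold with an interval that includes no difference (0.994 to 2.44). *Sox3*, a transcription factor of spermatogonia, had 59.1 CPM in the deep cells and 11.6 CPM in the low-depth cells, and *Foxo1* had 84.1 and 23.1 CPM. *Nanos3* went the other way, with 50.2 CPM in the low-depth cells (26.7 to 85.8) and an interval of 7.67 to 23.5 CPM in the deep cells. Whether *Kit* differed more than these genes was not tested. At 5000 UMIs per cell *Kit* was found in 24 of 48 deep cells and in 3 of the 18 low-depth cells deep enough to be thinned. The low-depth cells thus carried more *Stra8* per UMI than the deep cells, at 1088 against 838 CPM. The part of their depth in the low *Kit* was not tested.

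**Figure D2:**
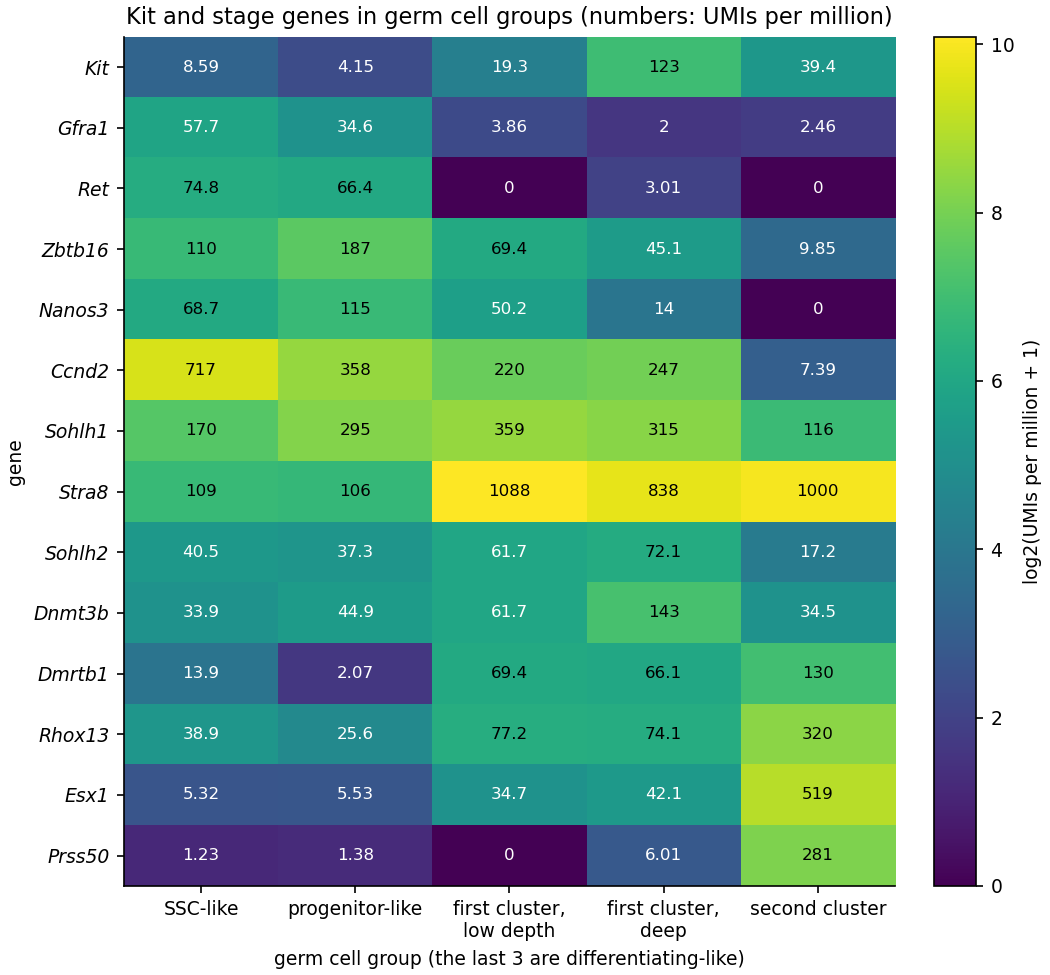
Levels of *Kit* and 13 stage genes in the 5 groups of germ cells, with colour on a log2(CPM + 1) scale and the CPM written in each field. *Kit* is highest, at 123, in the deep cells of the first differentiating-like cluster, where *Ret* is 3.01 and *Stra8* is 838.

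*Kit* was then set against stage genes cell by cell, without the names of classes, in the 279 germ cells with at least 5000 UMIs, each thinned to that depth. *Kit* was found in 37 of them (13.3%). Stage genes with UMIs in at least 10 of these cells were compared by the *Kit* level in cells with and without the gene. This comparison was not made over all genes, so the counts of stage genes below have no background share beside them. Detection of a gene at this depth is partial, so cells without a UMI include cells that express it.

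Of the 7 genes listed for differentiating spermatogonia, 5 marked cells with at least 2-fold more *Kit*, namely *Stra8*, *Sohlh2*, *Dmrtb1*, *Rhox13* and *Dnmt3b*. *Kit* was found in 27 of 106 cells with *Stra8* (25.5%, 17.5 to 34.9) and in 10 of 173 cells without it (5.78%, 2.81 to 10.4). The levels were 58.5 CPM and 15.0 CPM, a ratio of 1.96 on the log2 scale (0.98 to 3.02). Read the other way, 73.0% of the cells with *Kit* held a *Stra8* UMI, against 32.6% of the cells without *Kit*.

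With *Dnmt3b* the *Kit* level was 69.4 CPM and without it 18.4 CPM, a log2 ratio of 1.92, although the ratio was 0.10 when cells were thinned to 3000 UMIs. For *Rhox13*, an X-linked homeobox gene, the log2 ratio was 1.57 (0.66 to 2.50), for *Sohlh2* 1.36 (0.39 to 2.29) and for *Dmrtb1*, which acts at the entry to meiosis, 1.33 (0.27 to 2.30). *Sohlh1*, which with *Sohlh2* encodes a bHLH factor known to drive *Kit* transcription, stood at 0.82, and its interval includes 0 (−0.18 to 1.91). Its ratio was 1.36 (0.28 to 2.70) without thinning. *Ccnd2*, a cyclin placed in the same list, went the other way, with *Kit* at 17.8 CPM in the 169 cells with it and 52.7 CPM in the 110 cells without (−1.57, −2.58 to −0.62).

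Of the 17 genes listed for undifferentiated spermatogonia, 14 were found in at least 10 cells, and 6 of these marked cells with *Kit* at least 2-fold lower. For this, a total of 0 *Kit* UMIs was set at 3 counts, while totals of 1 or more entered as found. By their intervals 5 of the 14 lay below 0, namely *Ret*, *Etv5*, *Zbtb16*, *Nanos3* and *Upp1*. *Ret*, the signalling subunit of the GDNF receptor, was found in 66 cells, of which 2 (3.03%) held *Kit*, against 35 of 213 cells without it (16.4%). The log2 ratio of *Kit* was −2.70 (−5.79 to −0.76). *Nanos3*, an RNA-binding repressor, gave the same counts in a set of cells that was also 66. *Zbtb16*, the transcription factor PLZF that is known to repress *Kit*, gave −1.40 (−2.71 to −0.27), with *Kit* in 6 of 103 cells with it and 31 of 176 cells without. The value for *Zbtb16* was unstable, at −0.75 (−1.88 to 0.28) with another random seed, −0.59 (−2.59 to 0.98) at 3000 UMIs and −0.95 (−2.26 to 0.18) with germ cells taken by a *Ddx4* or *Dazl* UMI.

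For *Gfra1*, the ligand-binding subunit of the GDNF receptor, *Kit* was found in 3 of 38 cells with the gene, and the log2 ratio of −1.11 had an interval that includes 0 (−3.44 to 0.54). *Bcl6b* and *Neurog3* were past 2-fold with 1 *Kit* cell each and intervals that also include 0. For *Neurog3*, a transcription factor of progenitors, the direction reversed without thinning, to 0.67 (0.14 to 1.17) from −1.57. No *Kit* UMI was found in the 31 cells with *Etv5*, the 22 with *Lhx1*, the 11 with *Nanos2* or the 25 with *Upp1*. Set at the 3 counts that a total of 0 allows, *Kit* in these cells was 1.83-fold lower for *Etv5*, 1.44-fold for *Upp1* and 1.26-fold for *Lhx1*, and the cells with *Nanos2* were too few for a bound. Intervals of the log2 ratio, which also cover counting error in the cells without the gene, reached up to −0.52 for *Etv5* and −0.17 for *Upp1*. For *Lhx1* the upper limit was 0.03, which includes no difference. Without thinning, where detection also follows the depth of each cell, more of the undifferentiated genes had intervals below 0. *Gfra1* stood at −1.77 (−2.42 to −1.17) there and *Bcl6b* at −1.62 (−2.50 to −0.86). *Lhx1* stood at −2.85 (−4.09 to −1.84) and *Nanos2* at −3.54 (−5.84 to −1.97). *Sall4*, *Lin28a* and *Sox3*, which persist into differentiating spermatogonia, stood at −0.01, −0.33 and 0.17. *Rarg*, the retinoic acid receptor of undifferentiated spermatogonia that respond to retinoic acid, was the exception at 1.17 (−0.53 to 2.52), from 15 cells. In cells that were not thinned, *Sall4* stood at −1.01 (−1.46 to −0.56) and *Lin28a* at 0.28 (−0.18 to 0.75). *Sox3* stood at 0.55 (0.10 to 1.01) and *Rarg* at 1.53 (1.06 to 1.98) in those cells.

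All 9 genes listed for later stages were found in at least 10 cells, and 8 of them were within 2-fold. *Esx1* stood at 0.58 (−0.66 to 1.66), *Prss50* at 0.45 (−1.25 to 1.79), and *Sycp3*, a protein of the synaptonemal complex, at −0.03 (−0.95 to 0.89). *Meioc*, needed to sustain meiotic prophase, stood at −1.73 with an interval that includes 0 (−7.07 to 0.82). Without thinning, where detection also follows the depth of each cell, most of these genes went with more *Kit*, with log2 ratios of 1.47 (0.94 to 1.96) for *Ly6k*, which had stood at −0.36, 1.05 (0.58 to 1.51) for *Esx1*, 0.89 for *Prdm9*, 0.73 for *Dmc1* and 0.61 for *Stag3*. *Prss50* stood at 0.69 (0.03 to 1.30) there. Every *Kit* UMI of the germ cells was in a cell with *Sycp1*, but 87.1% of the germ cells without *Kit* held *Sycp1* too. Other factors named in the literature as regulators of *Kit* were within 2-fold where enough cells held them, with *Dmrt1* at −0.61 and *Foxo1* at −0.15. *Gata2* and *Mitf* were found in 3 and 7 cells, and *Tal1* in none.

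Combinations of these genes were compared in the same cells. Of 60 cells with *Stra8* but none of *Gfra1*, *Ret*, *Ly6k*, *Esx1* or *Prss50*, 19 held *Kit* (31.7%, 20.3 to 45.0). Of 33 cells with *Stra8* and 1 or more of *Ly6k*, *Esx1* and *Prss50*, 6 held it (18.2%, 6.98 to 35.5), and the intervals of these sets overlap. Of 71 cells with *Gfra1* or *Ret* and no *Stra8*, 2 held it (2.82%, 0.343 to 9.81). The 13 cells with *Stra8* together with *Gfra1* or *Ret* included 2 with *Kit*. The 12 cells with *Ly6k*, *Esx1* or *Prss50* but neither *Stra8* nor the GDNF receptor genes also included 2 (16.7%, 2.09 to 48.4), at 50 CPM against 36.4 CPM in the cells that held *Stra8* as well. Of the 90 cells with none of these genes 6 held *Kit* (6.67%, 2.49 to 13.9).

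**Figure D3:**
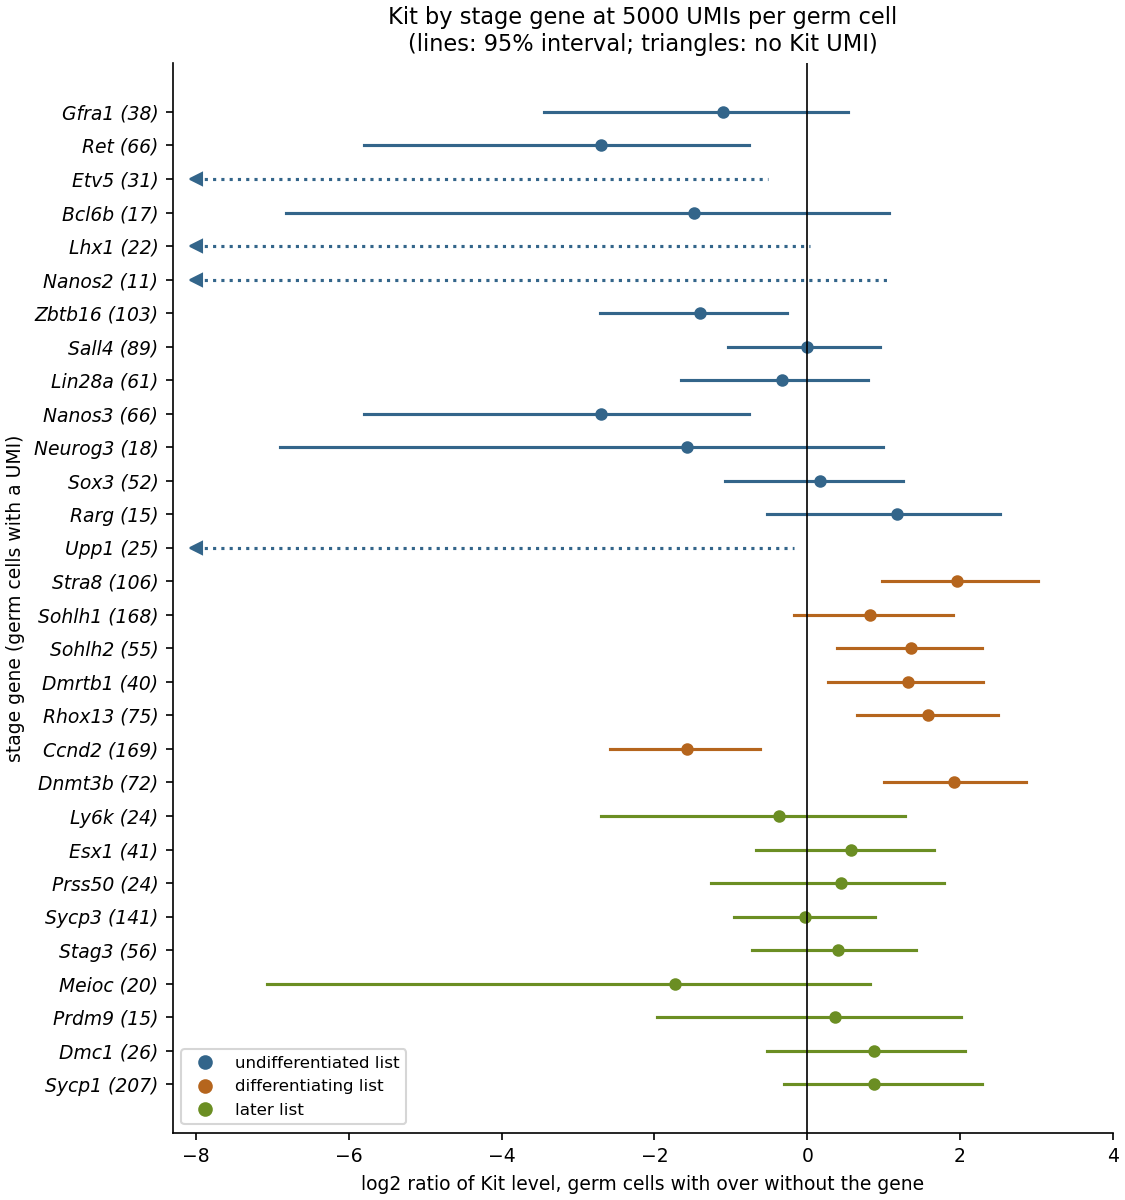
Log2 ratio of the *Kit* level between germ cells with and without a UMI of each stage gene at 5000 UMIs per cell, with 95% intervals, for genes found in at least 10 cells (their number in brackets). Points right of 0 are genes found with more *Kit*, such as *Stra8* at 1.96, and triangles at the left edge are 4 genes whose cells held no *Kit* UMI.

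Over all genes with at least 100 UMIs in these 279 cells, 2061 in number, the 5 with the highest ratio between the 37 cells with *Kit* and the 242 without were *Gm7120*, *P3h3*, *RP23-4H17.3*, *Cited1* and *Stra8*. Their log2 ratios were 2.09 (1.65 to 2.53), 1.79 (1.23 to 2.34), 1.60 (1.11 to 2.07), 1.49 (0.90 to 2.06) and 1.40 (1.12 to 1.67). *P3h3* encodes a collagen prolyl hydroxylase and *Cited1* a transcriptional coactivator. The 5 lowest were 4 hemoglobin genes and *Nefm*, a neurofilament gene, at −2.59 (−4.89 to −1.01). The hemoglobin UMIs were those of 1 cell without *Kit*, which held 94.5% to 98.8% of the UMIs of each of these genes.

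Across the 11 clusters of germ and somatic cells, *Kit* was most like *Socs1*, a suppressor of cytokine signalling that is known to bind the receptor. The Pearson correlation of log2(CPM + 1) was 0.92 among 9073 genes with at least 100 UMIs. *Tango2* (0.90), *Dnpep* (0.89), *Trp53i13* (0.88) and *Acadvl* (0.87) followed. *Socs1* had 57.3 CPM in the first differentiating-like cluster, 41.9 in the second, 19.6 in the SSC-like and 24.2 in the progenitor-like cluster, and 0 to 1.45 in the Sertoli-like clusters. Its highest level was 66.6 CPM, in the small T cell-like cluster, and the stromal-like cluster had 15.2 CPM. All clusters come from 1 library, and some rest on few UMIs.

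*Kit* was also found in somatic cells, in 19 of 596 cells with 33 UMIs in all. The level was 6.16 CPM, or 0.200 of that in germ cells (0.133 to 0.292). For 6 germ cell markers the same ratio ranged from 0.0186 for *Dazl* to 0.0978 for *Taf4b*, with a median of 0.0241. The somatic *Kit* UMIs were unevenly spread. Sertoli-like cells held 1 UMI among 255 cells (0.436 CPM, 0.0110 to 2.43), peritubular myoid-like cells 1 and macrophage-like cells 1, whereas the stromal-like cells held 24 in 12 cells (14.6 CPM, 9.37 to 21.8).

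Among the stromal-like cells *Kit* went with the genes of Leydig cells, the androgen-producing cells of the interstitium. In this cluster 10 cells held at least 5 UMIs of the steroidogenic and Leydig cell markers *Cyp11a1*, *Hsd3b1*, *Star*, *Cyp17a1*, *Insl3* and *Lhcgr*, a threshold set after these values were seen. Of the 24 *Kit* UMIs, 15 were in 6 of these 10 cells, with 3, 1, 2, 3, 3 and 3 UMIs, and the other 9 were in 6 of the remaining 176 cells. The levels were 112 CPM (62.8 to 185) and 5.97 CPM (2.73 to 11.3), a log2 ratio of 4.23 (2.95 to 5.61). The level in these 10 cells was 1.30-fold that of the differentiating-like germ cells, with an interval of 0.707 to 2.21.

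Within the 10 cells *Kit* did not follow the amount of Leydig markers. The cell with the most, 387 marker UMIs, held no *Kit*, nor did those with 46, 16 and 9, while the cell with 132 held 3. When the cells were clustered at a finer resolution of 1.2, all 24 *Kit* UMIs were in one stromal-like cluster of 125 cells (22.9 CPM). The other, of 61 cells, held 0, and the 3 counts that this allows correspond to 5.07 CPM. *Cyp11a1* had 182 CPM in the cluster of 125 cells and 0 in that of 61, so this split is not independent of that by Leydig markers.

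The small T cell-like cluster held 6 *Kit* UMIs in 4 of 26 cells (36.4 CPM, 13.3 to 79.1). It was mixed, with a T cell receptor complex (*Cd3*) gene found in 12 cells, *Rgs5*, a pericyte gene, in 10 others, and neither in 4, and each of these sets held 2 *Kit* UMIs. Defining genes of mast cells, which carry KIT, were at 0 in every somatic class.

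*Kitl* had a different distribution and was found chiefly in Sertoli-like cells, the nurse cells of the seminiferous tubule. These 255 cells held 461 *Kitl* UMIs, 84.3% of those in the kept cells, at a level of 201 CPM (183 to 220). A *Kitl* UMI was found in 195 of them (76.5%, 70.8 to 81.5), of which 67 held 1, 60 held 2 and 68 held 3 or more. The stromal-like cells held 65 UMIs at 39.6 CPM (30.6 to 50.5), in 48 of 186 cells (25.8%). The peritubular myoid-like cells held 6 UMIs at 8.10 CPM (2.97 to 17.6), in 5 of 94 cells (5.32%).

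*Kitl* in Sertoli-like cells was 5.07-fold that in stromal-like cells (3.91 to 6.68) and 24.8-fold that in peritubular myoid-like cells (11.3 to 67.9). Stromal-like cells in turn had 4.89-fold the level of peritubular myoid-like cells (2.13 to 13.8). These 3 classes had similar depths, with medians of 8343, 8371 and 7446 UMIs per cell, and after thinning to 5000 UMIs the levels were 183, 40.7 and 8.89 CPM. No 2 of the 3 levels were within each other's interval. The ratios over peritubular myoid-like cells depended on the clustering, at log2 4.63 and 2.29 for Sertoli-like and stromal-like cells and at 3.78 and 1.45 when the variable genes were chosen by vst, a variance-based ranking.

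*Kitl* was even among the Sertoli-like cells. They formed 3 clusters of 132, 78 and 45 cells with levels of 213 CPM (187 to 242), 203 CPM (171 to 239) and 168 CPM (133 to 210), and *Kitl* was found in 77.3%, 76.9% and 73.3% of their cells. The largest ratio between any pair of them was 1.26 (0.977 to 1.65), so that no difference was detectable at this depth. The finer stromal-like clusters had 49.0 and 34.3 CPM, a ratio of 1.43 with an interval of 0.845 to 2.40. Stromal-like cells with Leydig markers had 0.940-fold the *Kitl* of the others (0.295 to 2.32), where *Kit* had differed 18.8-fold (7.71 to 48.7).

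**Figure D4:**
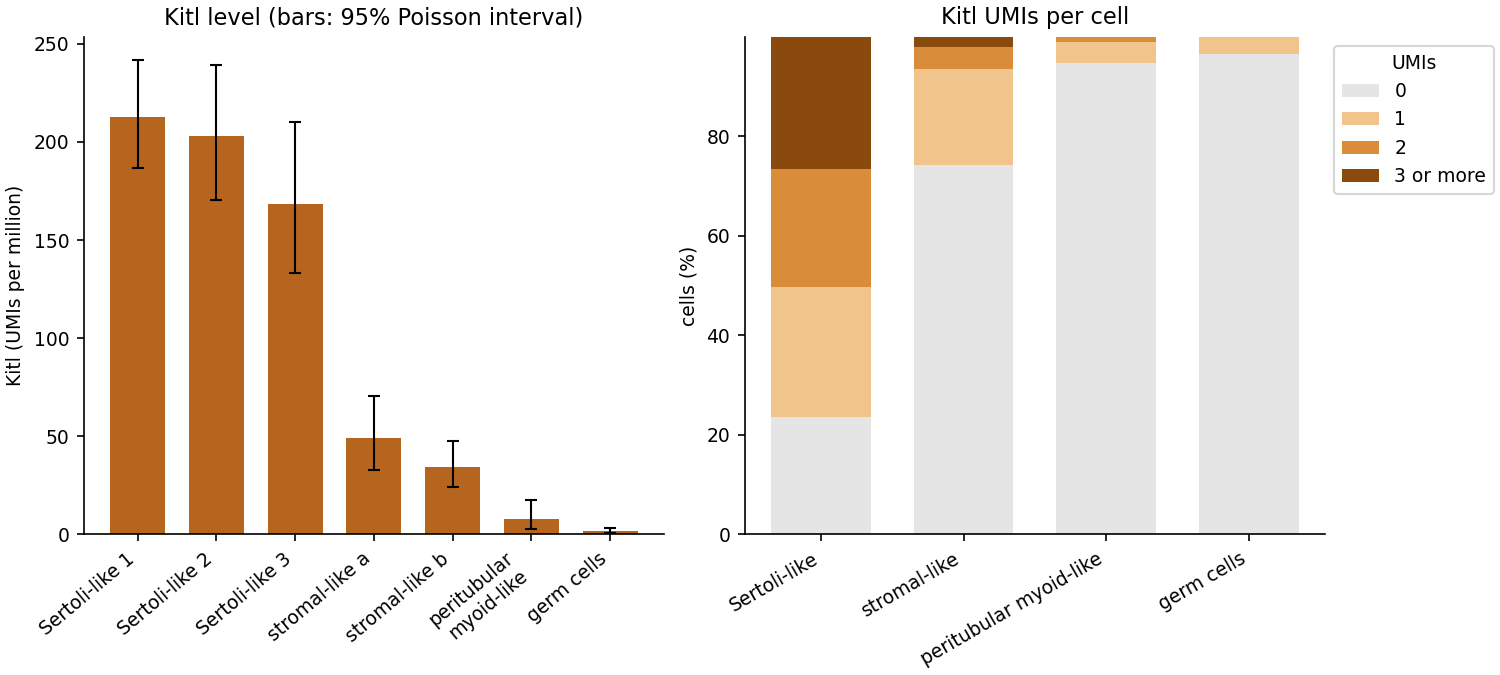
Level of *Kitl* (left, CPM, with 95% intervals) in the 3 Sertoli-like clusters, the 2 finer stromal-like clusters, the peritubular myoid-like cells and all germ cells, and the percentage of cells with 0, 1, 2 or 3 or more *Kitl* UMIs in each class (right). The Sertoli-like clusters lie between 168 and 213 CPM and the stromal-like clusters at 34.3 and 49.0.

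In germ cells *Kitl* had 11 UMIs, 1 each in 11 of 324 cells, and a level of 1.98 CPM (0.988 to 3.54). The germ cell level was 0.00986 of the Sertoli-like level. For 7 Sertoli cell markers measured the same way this ratio ran from 0.00670 for *Amh* to 0.0129 for *Cldn11*, with a median of 0.0106, and the pooled *Kitl* of germ cells lay within this range. Summed over the Sertoli cell markers, levels were 66.7 CPM (SSC-like), 60.2 CPM (progenitor-like) and 65.5 CPM (differentiating-like). *Amh* alone stood at 2.86, 2.07 and 4.81 CPM, with the classes in the same order. Whether *Kitl* was spread differently from these markers was not tested. *Kitl* stood at 3.27 CPM (1.41 to 6.45) over all 112 SSC-like cells, from 8 cells with 1 UMI each. Over the 79 progenitor-like cells it stood at 2.07 CPM (0.428 to 6.06), from 3 cells. In the 133 differentiating-like cells it was 0. The count of 0 allows a level of up to 1.80 CPM and a share of cells with a *Kitl* UMI of up to 2.26%. At the finer resolution of 1.2 the SSC-like clusters were those that differed in *Kit*, *Stra8* and *Gfra1* above. All 8 SSC-like *Kitl* UMIs were in the cluster of 61 cells. The other, of 45 cells, held 0, which allows up to 2.96 CPM. The part of free RNA in these UMIs was not tested, and they are not taken here as expression. Peritubular myoid-like cells had 4.09-fold the germ cell level, from 6 UMIs (1.24 to 12.1). The mixed T cell-like cluster held 4 *Kitl* UMIs in 4 of 26 cells (24.2 CPM, 6.60 to 62.1). The macrophage-like cells held 0, which allows up to 5.81 CPM, and both genes were found together in 9 of the 920 cells.

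Across the 11 clusters *Kitl* was most like *Ptges*, a prostaglandin E synthase, *Rhou*, a small GTPase, *Tmem35*, *Ddit3*, a stress-induced transcription factor, and *Wnt6*, a secreted signalling protein. Their Pearson correlations were 0.96 to 0.97. *Wnt6* had 381 to 569 CPM in the 3 Sertoli-like clusters, 244 CPM in the stromal-like cluster and 2.39 to 6.22 CPM in the germ cell clusters.

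The components downstream of the receptor were read from a list of 60 signalling genes, of which 52 had at least 20 UMIs in the germ cell comparison. Set against the undifferentiated classes together, *Kit* in differentiating-like cells was 12.5-fold higher (8.23 to 19.6), whereas 7 of the 52 genes were at least 2-fold higher and 7 at least 2-fold lower, 13.5% each. Over all 10519 genes tested the shares were 8.15% higher and 10.4% lower. The median log2 ratio of the list was −0.0025, against 0.09 over all genes. The list thus had no common direction.

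The genes with the highest ratios in differentiating-like cells were *Grb10* (log2 2.01, 0.87 to 3.23), an adaptor that binds activated receptors, *Stat5b* (1.53, 0.54 to 2.54), *Socs1* (1.33, 0.88 to 1.78), *Socs6* (1.16, 0.52 to 1.80), which like *Socs1* restrains KIT signalling, and *Bad* (1.16, 0.70 to 1.61), a cell death regulator that AKT inactivates. The lowest were *Pik3cd* (−2.36, −4.03 to −1.06), a catalytic subunit of PI3 kinase, the SRC family kinase *Fyn* (−2.23, −2.87 to −1.65), *Stat3* (−1.83, −2.60 to −1.14), the RAS pathway inhibitor *Spred2* (−1.69, −2.75 to −0.78) and *Stat5a* (−1.39, −2.59 to −0.36). *Foxo3* and *Pik3ca* were the other genes past 2-fold on the lower side. *Stat5a* and *Stat5b*, whose products are close relatives, differed in opposite directions. The adaptor *Grb2* was within 2-fold, at 0.32.

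In the somatic comparison, Sertoli-like cells were set against stromal-like and peritubular myoid-like cells together. Of 50 signalling genes tested, 12 (24.0%) were at least 2-fold higher and 5 (10.0%) at least 2-fold lower, beside 25.0% and 14.3% of the 10575 genes tested. These shares were near the background. *Src* (2.84, 1.88 to 3.96), *Yes1* (2.20, 1.41 to 3.09), *Sos2* (2.16, 1.36 to 3.05), *Plcg1* (37.0 against 9.24 CPM) and *Sos1* (1.94, 1.28 to 2.66) had the highest ratios. *Grb10* (−5.07, −6.29 to −4.07), *Socs1* (−3.85, −6.96 to −1.87), *Sh2b2* (−3.51, −5.18 to −2.20) and *Pik3r1* (−1.26, −2.02 to −0.53) were among the lowest.

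A second list held 9 genes of ligand processing, the proteases that can cut KITL from the cell surface and their inhibitors, of which 7 were tested in somatic cells, with 28.6% at least 2-fold higher and 42.9% at least 2-fold lower beside the 25.0% and 14.3% of all genes. These shares rest on few genes, 2 higher and 3 lower, and the higher share was near that of all genes. *Adam10* and *Adam17*, which encode membrane sheddases, were higher in the Sertoli-like cells, at log2 ratios of 1.66 (1.22 to 2.13) and 1.05 (0.37 to 1.76). The matrix metalloproteinase *Mmp14* and the inhibitors *Timp1* and *Timp2* were lower, at −1.03 (−1.30 to −0.77), −2.40 (−3.05 to −1.80) and −3.07 (−3.58 to −2.60). In levels, *Adam10* had 73.2 CPM in Sertoli-like cells and 23.1 CPM in the others, and *Timp2* had 17.4 and 147 CPM. In germ cells 6 of the 9 were tested, and *Timp1*, *Mmp9* and *Mmp14* were at least 2-fold lower in differentiating-like cells, on 6, 5 and 2 UMIs there. This is 50% of a few genes beside 10.4% of all genes, and with a minimum of 50 UMIs only 2 of the 9 were tested and neither was past 2-fold.

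**Figure D5:**
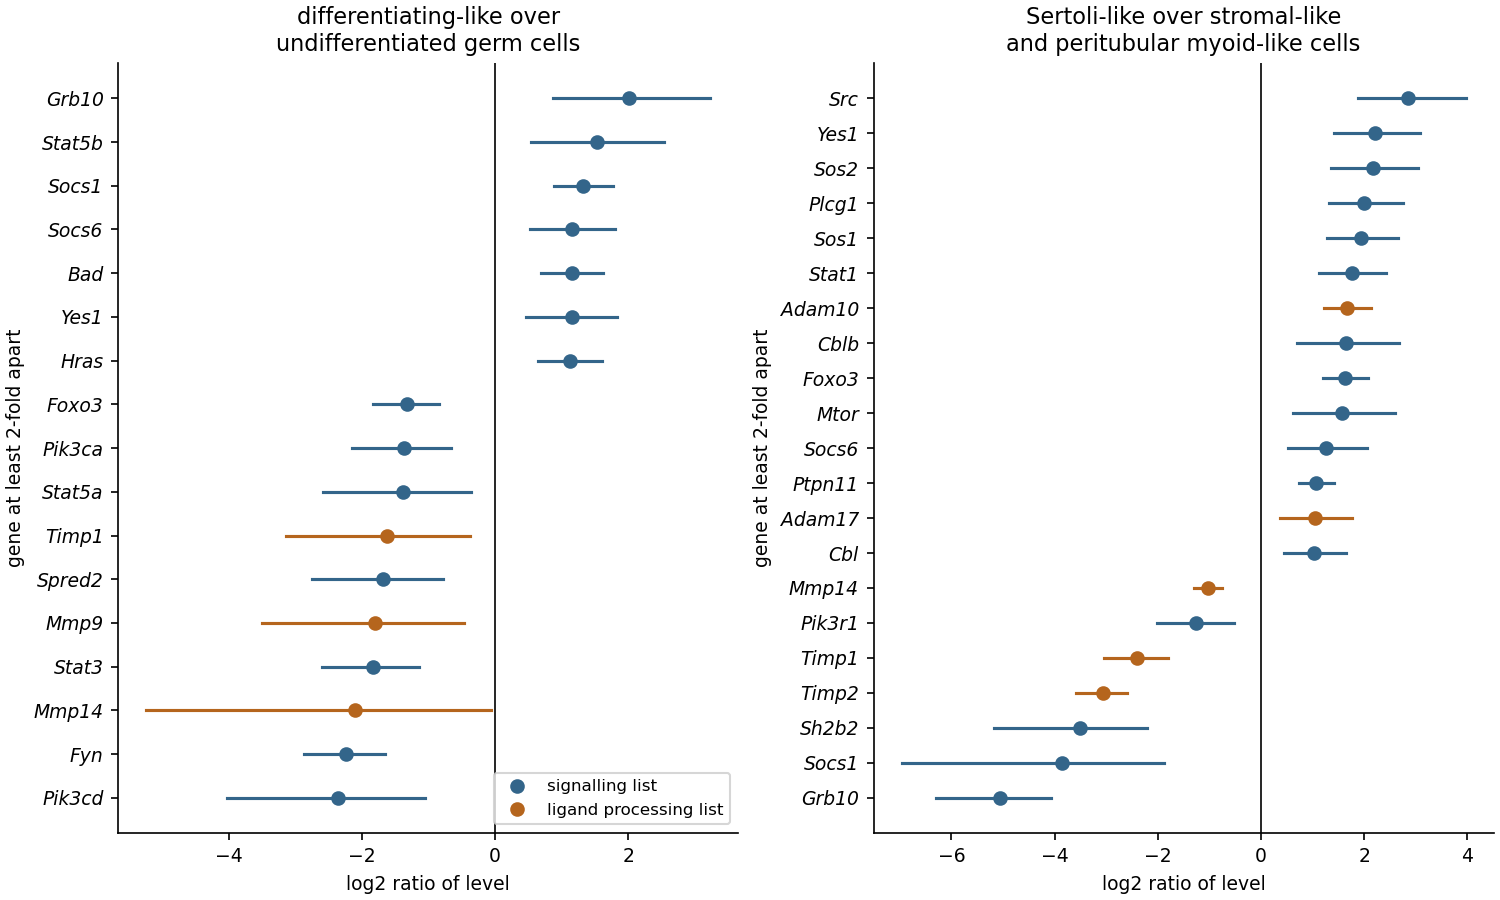
Log2 ratios of level with 95% intervals for genes of the signalling list (blue) and the ligand processing list (brown) that were at least 2-fold apart and are reported here. The left plot compares differentiating-like with undifferentiated germ cells, and the right plot Sertoli-like cells with stromal-like and peritubular myoid-like cells together. Higher and lower genes are equally many on the left for signalling, 7 and 7, and *Grb10* lies at 2.01 there and at −5.07 on the right.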

How the data were processed

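The deposited matrix holds UMI counts per gene and barcode, which the authors made from 10x Genomics v2 libraries with Cell Ranger 2.1.0 on mm10 (the assembly GRCm38) and did not normalize. *Kit*, *Kitl* and all gene lists were chosen with earlier results of these data known. Barcodes were dropped with fewer than 500 genes, with 10% or more of UMIs from mitochondrial genes, or as doublets by scrublet (scanpy 1.11.5, expected rate 0.01, which called 4 of 970). The rest were clustered with Seurat 5.3.0 in R 4.3.3, on mean.var.plot variable genes without *Kit* and *Kitl*, 14 principal components and a resolution of 0.5, and germ cells were clustered again. Each cluster was named for the marker list with the highest mean scaled expression, and stayed unnamed when its 10 leading genes held more markers of another class. These leading genes were ranked by difference in mean log-normalized expression, since a ranking by summed counts, tried first, had left the largest germ cell cluster unnamed for the hemoglobin of 1 barcode. *Stra8*, *Rhox13*, *Dmrtb1*, *Sycp3* and *Uchl1* named the differentiating-like class, so their levels between classes follow from the naming.

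Intervals are at 95%: exact Poisson for levels, exact conditional binomial for ratios, Clopper-Pearson for shares. They cover counting error only, since cells of 1 library are not replicates. Cells were thinned without replacement to 5000 UMIs with seed 0. Named genes were all stage genes of the lists, the 5 highest and 5 lowest list genes past 2-fold, the 5 most correlated genes, and the 5 highest and lowest genes between cells with and without *Kit*. Some list genes enter the counts but are not reported here by name. The ratio and thinning code was tested on simulated data. Gene positions and the printed sequences came from GENCODE M21.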

Additional observations from a re-analysis of the deposited data

How the results depend on the processing

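The level ratios of *Kit* between germ cell classes and of *Kitl* between somatic classes stayed within their intervals in all alternative values, 34 for *Kit* and 39 for *Kitl*. These count each ratio under each setting, with 13 alternative settings per *Kitl* ratio and 11 or 12 per *Kit* ratio. The settings changed filters, variable genes, principal components, resolution, count split and denominator. Some left the cells of the classes as they were, such as letting *Kit* and *Kitl* into the clustering, which gave the main values again. The *Kit* ratio of differentiating-like over SSC-like cells ran from 3.28 to 3.66 on the log2 scale and that over progenitor-like cells from 3.32 to 4.54, while SSC-like over progenitor-like ran from −0.31 to 1.07. *Kitl* in Sertoli-like over stromal-like cells ran from 2.21 to 2.46. Over peritubular myoid-like cells the range was 3.78 to 4.66 for Sertoli-like cells and 1.45 to 2.34 for stromal-like cells, lowest with variable genes chosen by vst. With a mitochondrial limit of 5%, 67 germ cells remained in 1 unnamed cluster, which gave no *Kit* ratio. At a resolution of 0.3 there was no progenitor-like cluster, so only the ratio over SSC-like cells had a value, 3.66. The log2 ratio of *Kit* with over without *Stra8* was 3.51 without thinning and 3.08 at 10000 UMIs, and that for *Dnmt3b* was 0.10 at 3000 UMIs. That for *Zbtb16* ran from −1.47 to −0.59 and fell below 2-fold under 4 of 5 alternatives, while that for *Ret* ran from −3.30 to −1.73. Shares of cells with *Kit* moved with the depth and with the number of UMIs counted as detection. Of the signalling genes, 3 instead of 5 were at least 2-fold lower in Sertoli-like cells with a minimum of 50 UMIs and 9 with a minimum of 1. After the data had been seen, the Leydig marker threshold was also set to 2 and 10 UMIs (log2 ratio 4.09 and 4.35), and the first differentiating-like cluster was split at 8000 UMIs per cell (2.26) and measured without mitochondrial and ribosomal protein genes (2.71). The smallest groups rest on few UMIs, 5 for *Kit* in the low-depth cells and 6 for *Kitl* in peritubular myoid-like cells. No paired analysis was possible because there is 1 library, and no replicate could be left out.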
